A study of Homo sapiens with 4 samples.

Results

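Kinesins are motor proteins that move along microtubules or take their ends apart. Mitotic kinesins build the spindle, position chromosomes and complete cytokinesis, and their mRNAs are made mainly by dividing cells. Transport kinesins carry organelles, vesicles and ciliary components, and several are mainly neuronal. The kinesin genes were all protein-coding genes whose symbol is KIF followed directly by a number, which gave 39 genes of the 19138 protein-coding genes examined. They were split into 14 mitotic kinesins, 13 transport kinesins and 12 others, and a peak belonged to a gene when its deposited entry carried that gene's ID. In all, 17 of the 9107 HNRNPC peak positions and 224 of the 63507 PABPC4 peak positions belonged to kinesin genes.

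The RNA bound by each protein was mapped in MDA-MB-231, a widely grown line of human breast cancer cells with mesenchymal traits. Cross-linking used 400 mJ per square centimetre of ultraviolet light at 254 nm, and 2 samples were made per protein with 1 antibody each. HNRNPC, a nuclear protein that binds runs of U, was mapped by irCLIP according to the labels (the list is named for HITS-CLIP, a related form), and PABPC4, a poly(A)-binding protein, by PAPERCLIP, in which reverse transcription is primed on poly(A). The samples of a protein were pooled into 1 peak list, so no value had a replicate spread, neither list had a control sample, and no test between groups was possible. A peak's height is the number of pooled unique tags at its summit, with list medians of 11 (HNRNPC) and 38 (PABPC4) tags. The 6 mesenchymal marker genes chosen for this cell line all had PABPC4 3′ UTR peaks, with the tallest in each gene between 326 and 10197 tags. Of 6 luminal marker genes, 3 had one, and the tallest was 108 tags. Intervals below are 95% intervals that cover counting error only, and peaks of 1 gene are not independent of each other. The amount of RNA per gene was not measured, so more RNA and more binding per RNA cannot be told apart.

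HNRNPC peaks were listed in 10 of the 39 kinesin genes, and 7 of these were mitotic kinesins. Among all protein-coding genes, 19.8% had at least 1 HNRNPC peak, against 7 of 14 mitotic kinesins, 3 of 13 transport kinesins and 0 of 12 others. Of the 10 genes, 6 had a peak with an authors' p-value of at most 0.001, and 4 had one at or above the list's median height. The share of all protein-coding genes under either stricter rule was not examined. Whether these counts lie above or below the usual share is therefore not known. The mitotic genes were KIF2A and KIF2C, which take apart microtubule ends, KIF4A, a chromosome-bound motor of the central spindle, KIF15, which helps keep the spindle bipolar, KIF18A, which limits chromosome movements at metaphase, KIF18B, which acts on astral microtubules, and KIF20B, which acts late in cytokinesis. The transport genes were KIF1B, a carrier of mitochondria and synaptic vesicle precursors, KIF3B, a subunit of the kinesin-2 motor that serves cilia, and KIF13A, which moves endosomes. Each of the 10 also had PABPC4 peaks. So did 3701 of the 3784 protein-coding genes with an HNRNPC peak, which are 19.3% of all protein-coding genes. The authors' p-values of the 17 HNRNPC peaks ran from 1e-100 to 0.075, with 15 at most 0.05 and 10 at most 0.001.

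**Figure D1:**
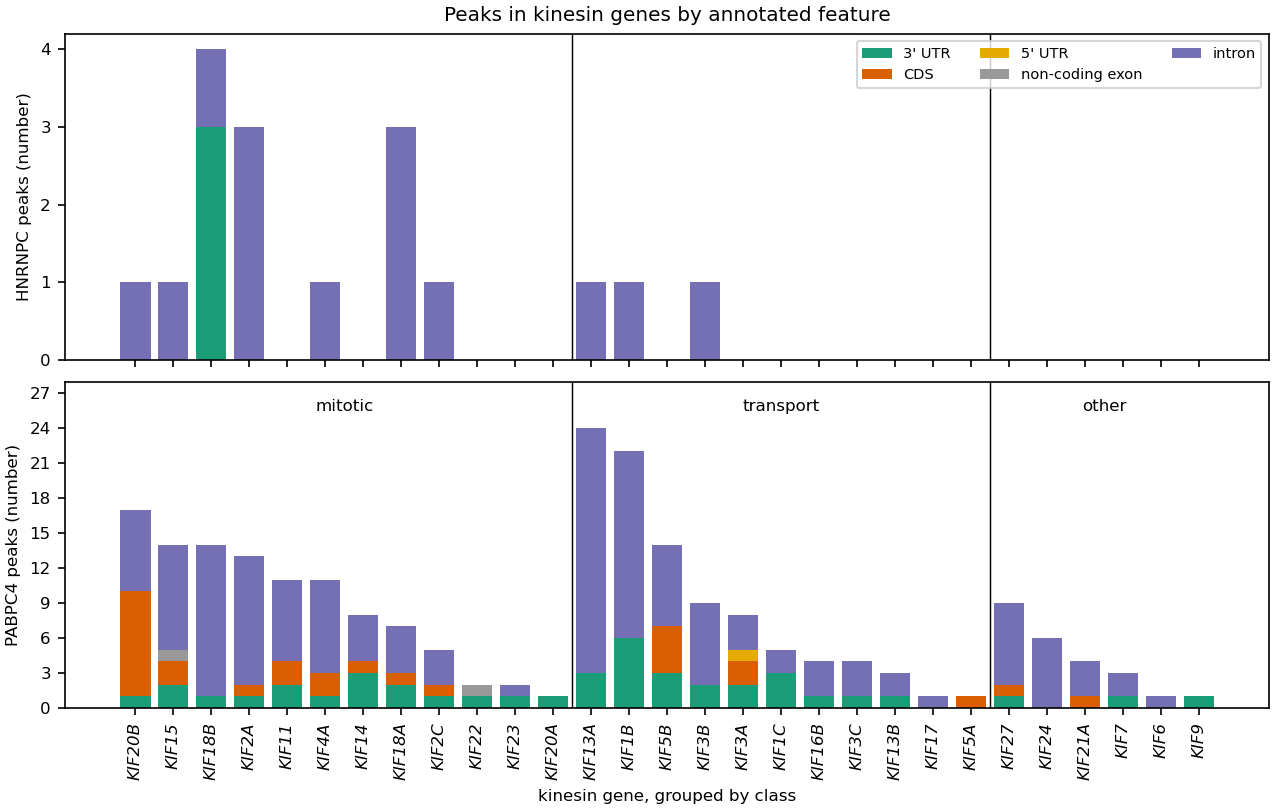
Number of HNRNPC peaks (top) and PABPC4 peaks (bottom) in each of the 29 kinesin genes with a peak, coloured by annotated feature and grouped by class. HNRNPC peaks lie in 10 genes and only KIF18B has them in its 3′ UTR, while PABPC4 intron peaks make up most of the bars of KIF13A and KIF1B.

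Most HNRNPC peaks in kinesin genes lay in introns, which held 14 of the 17 (82.4%, 59.0 to 93.8%, Wilson), against 85.5% of the whole list. The other 3 were all in the 3′ UTR of KIF18B, the only kinesin gene with an HNRNPC 3′ UTR peak, a feature of 2.05% of protein-coding genes. With 1 transcript per gene, the 11-tag peak of the 3 fell in coding sequence. The tallest 3 kinesin peaks were intronic. They were 31 tags in KIF18B, 25 tags in KIF3B and 19 tags in KIF18A, all above the list's median height of 11 tags. The 14-tag peak of KIF4A was next among intron peaks. The remaining intron peaks were lower, at 10 and 6 tags in KIF18A, 9 tags in KIF2C, 8 tags in each of 3 peaks of KIF2A, 7 tags in KIF15 and KIF13A, and 6 tags in KIF20B and KIF1B. The 7-tag peak of KIF15 reached 8 nt past the start of TMEM42, a gene that lies within the longest annotated extent of KIF15. It ended 8655 nt past the nearest annotated 3′ end of a coding KIF15 transcript and was intergenic with 1 transcript per gene. The 3 peaks of KIF2A were also listed under the ID of IPO11, a gene downstream, and lie before its annotated start.

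Of the 4 tallest intron peaks, those of KIF18B, KIF18A and KIF4A are shown with the 50 nt before them. They differ in runs of T, which stand for the runs of U that HNRNPC binds. The sequences run 5′ to 3′ on the transcribed strand of hg38, and capitals mark runs of 5 or more T and the hexamer GTGTCA. The hexamer is not a run of U.
KIF18B, 31 tags, chr17:44940763-44940906, minus strand: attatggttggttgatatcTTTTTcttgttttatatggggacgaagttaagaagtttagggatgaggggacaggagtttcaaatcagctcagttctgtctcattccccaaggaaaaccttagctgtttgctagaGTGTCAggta
KIF18A, 19 tags, chr11:28107727-28107846, minus strand: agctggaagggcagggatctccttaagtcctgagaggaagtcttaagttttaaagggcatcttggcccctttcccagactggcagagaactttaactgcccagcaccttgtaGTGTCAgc
KIF4A, 14 tags, chrX:70370937-70371079, plus strand: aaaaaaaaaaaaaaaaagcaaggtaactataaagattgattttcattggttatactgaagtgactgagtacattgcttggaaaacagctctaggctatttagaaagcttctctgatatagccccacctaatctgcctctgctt

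The KIF3B and KIF18B peaks were preceded by runs of T within 50 nt, whereas the KIF18A and KIF4A peaks had none there or inside the peak. TTTTT, searched on the transcribed strand only, was found inside or in the 50 nt before 7 of the 17 kinesin peaks (41.2%, 21.6 to 64.0%), against 38.8% of the whole list. GTGTCA in the last 30 nt of the peak was found in 3 kinesin peaks, which were the 3 tallest, and in 24.4% of the list (17.6%, 6.19 to 41.0%, of the kinesin peaks). Of the PABPC4 list, 0.392% of peaks had the hexamer there. The origin of the hexamer, and its part in the heights of the 3 tallest peaks, were not tested. The KIF18A peak began 360 nt after the start of its gene, in an intron near the 5′ end. The KIF4A sequence opens with a genomic run of A, and a 49-tag PABPC4 peak ended directly before it, 50 nt upstream of the HNRNPC peak.

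Several of these introns contain Alu elements, which carry a run of U when transcribed in antisense. Peaks with 100 nt on each side were matched to 7SL RNA, the gene from which Alu elements derive. An antisense match was found for 7 of the 14 HNRNPC intron peaks in kinesin genes (50%, 26.8 to 73.2%), against 38.9% of HNRNPC intron peaks in the whole list. These 7 were 2 peaks in KIF18A and 1 peak each in KIF20B, KIF2A, KIF2C, KIF1B and KIF3B. The KIF4A peak had a sense match, which 1.59% of the intron peaks in the list had.

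KIF18B had peaks of both proteins near the end of its mRNA. Its HNRNPC 3′ UTR peaks were 12, 15 and 11 tags high, and they lay 218, 576 and 1184 nt upstream of the 232-tag PABPC4 peak at the annotated 3′ end. The authors' p-values of the 3 peaks were 0.00447, 1.06e-06 and 0.0613, in the same order. The 12-tag and 15-tag peaks matched 7SL RNA in antisense, and the 15-tag peak held a run of 12 T. No HNRNPC peak of a kinesin gene overlapped a PABPC4 peak of the same gene, but the share over all genes was not examined. The part of the 15-tag peak with its T run and the end of the PABPC4 peak, with the poly(A) signal in capitals, are given here.
KIF18B, 15 tags, chr17:44925442-44925471, minus strand: tgttcccccatcTTTTTTTTTTTTgagatg
KIF18B, 232 tags, chr17:44924709-44924738, minus strand: ggtataacAATAAAccgtctccatccttgg

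**Figure D2:**
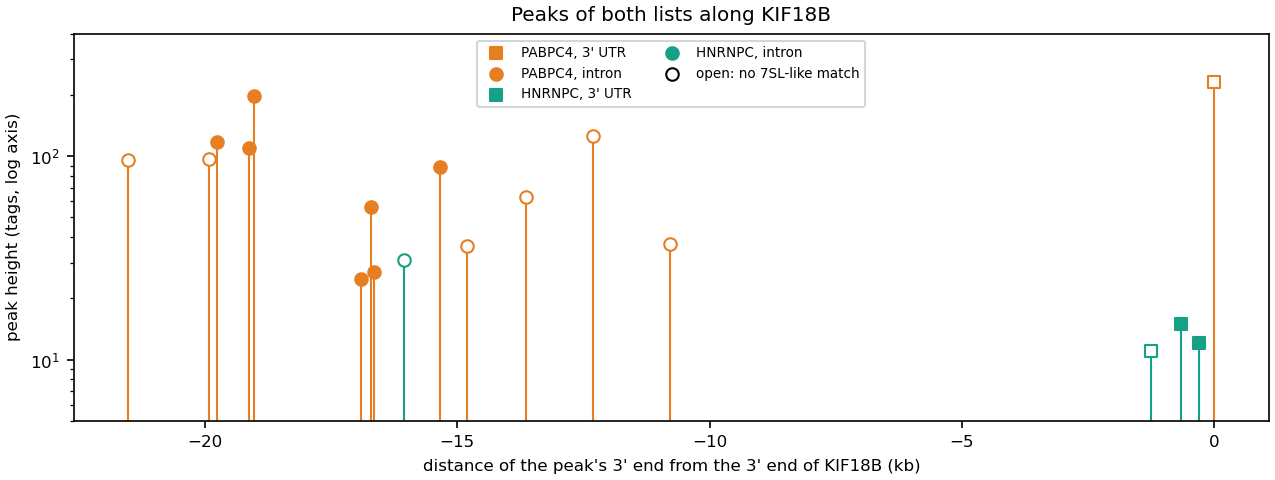
Peaks of HNRNPC (green) and PABPC4 (orange) along KIF18B, by the distance of the peak's 3′ end from the 3′ end of the gene in kb, with height in tags on a log axis. Squares are 3′ UTR peaks, circles are intron peaks, and open symbols have no match to 7SL RNA. The 3 HNRNPC 3′ UTR peaks stand beside the 232-tag PABPC4 peak, and 13 PABPC4 intron peaks lie between 10795 and 21518 nt upstream of the gene's end.

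The mitotic kinesins had more HNRNPC intron peaks for their intron length than the transport kinesins. There were 11 peaks in 0.675 Mb of intron in the mitotic genes, or 16.3 per Mb (8.14 to 29.2, exact Poisson). The transport genes had 3 peaks in 1.34 Mb, or 2.24 per Mb (0.462 to 6.55), and the other kinesins had 0 in 1.47 Mb. Across all protein-coding genes the rate was 6.36 per Mb, and across those with a PABPC4 3′ UTR peak it was 11.5 per Mb. The intervals of the mitotic and transport genes did not overlap. When only genes with a PABPC4 3′ UTR peak were kept, the transport rate was 2.86 per Mb (0.589 to 8.35), all mitotic intron peaks lay in such genes, and the intervals overlapped. With the authors' p-value at most 0.001 the rates were 11.9 (5.12 to 23.4) and 0.747 (0.0189 to 4.16) per Mb, without overlap. Background rates were then 4.55 per Mb in all protein-coding genes and 8.22 in those with a PABPC4 3′ UTR peak. With only peaks at or above the median height of the list the rates were 4.45 (0.917 to 12.99) and 0.747 (0.0189 to 4.16) per Mb, and the intervals overlapped. The rate at that height was 3.44 per Mb across all protein-coding genes and 6.39 per Mb across those with a PABPC4 3′ UTR peak, so the mitotic value then lay below the latter. They also overlapped with class lists that left out KIF2A, KIF20B, KIF13A, KIF13B and KIF16B, whose place in a class is less firm, at 13.05 (5.25 to 26.9) and 3.11 (0.376 to 11.2) per Mb. With positions of other IDs left out, which removed the KIF2A peaks, the mitotic rate was 11.9 per Mb (5.12 to 23.4), and its interval met that of the transport genes. With 1 transcript per gene, which removed the KIF15 peak, the mitotic rate was 14.8 per Mb (7.11 to 27.3).

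PABPC4 intron peaks had the same order. The mitotic genes had 67, or 99.3 per Mb (77.0 to 126), and the transport genes 65, or 48.5 per Mb (37.5 to 61.9). The other kinesins had 19, or 12.9 per Mb (7.79 to 20.2). The rate was 30.9 per Mb across all protein-coding genes and 52.2 per Mb across those with a PABPC4 3′ UTR peak. The 9 transport genes with such a peak had 60.9 per Mb (46.9 to 77.8), and that interval overlapped the mitotic one. KIF18B contributed 13 mitotic peaks from 18.3 kb of intron, and without it the mitotic rate was 82.3 per Mb (61.8 to 107), with an interval that met that of the transport genes. The narrower class lists gave 91.3 (67.6 to 121) and 60.6 (43.1 to 82.8) per Mb, with overlap. At or above the median height the rates were 50.4 (34.9 to 70.4) and 23.9 (16.3 to 33.7), without overlap. At that height, the rate of protein-coding genes with a PABPC4 3′ UTR peak lay below the mitotic interval and within the transport one. With the authors' p-value at most 0.001 the rates were 96.3 (74.3 to 123) and 47.8 (36.8 to 61.0), also apart. Without positions of other IDs the mitotic rate was 83.0 (62.7 to 108), and its interval lay just above the transport one. Without the peaks that had an A-rich stretch downstream, the rates were 28.2 (16.95 to 43.97) per Mb for mitotic and 18.7 (12.1 to 27.6) per Mb for transport genes, and the intervals overlapped. The rate at that setting was 8.87 per Mb across all protein-coding genes and 14.8 per Mb across those with a PABPC4 3′ UTR peak.

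**Figure D3:**
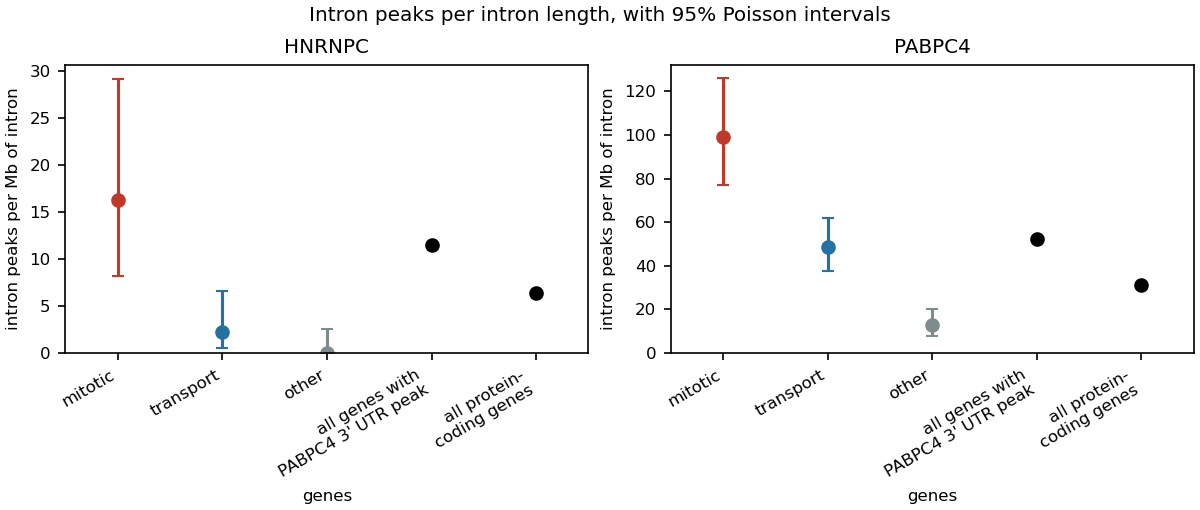
Intron peaks per Mb of intron for HNRNPC (left) and PABPC4 (right), in the 3 kinesin classes, in all protein-coding genes with a PABPC4 3′ UTR peak and in all protein-coding genes. Points are the rates over each set of genes and bars their 95% exact Poisson intervals. With all listed peaks, the mitotic points lie highest, at 16.3 and 99.3 peaks per Mb. If peaks under the median height are dropped, the mitotic HNRNPC rate is 4.45, below the 6.39 of genes with a PABPC4 3′ UTR peak.

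PABPC4 peaks were listed in 29 of the 39 kinesin genes, against 61.5% of all protein-coding genes. The 29 were 12 of 14 mitotic kinesins, 11 of 13 transport kinesins and 6 of 12 others. No peak in either list was found for KIF2B and KIF4B of the mitotic class, for KIF1A and KIF5C of the transport class, or for KIF12, KIF19, KIF21B, KIF25, KIF26A and KIF26B. Low values were listed for several genes with peaks. KIF5A, a neuronal kinesin-1 heavy chain, had a single 4-tag peak in its coding sequence (CDS), KIF17, a motor of dendrites and cilia, a single 6-tag intron peak, and KIF9, a ciliary kinesin, a single 7-tag 3′ UTR peak.

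A 3′ UTR peak of PABPC4 was present in 24 kinesin genes, against 50.7% of protein-coding genes. These were 12 of 14 mitotic, 9 of 13 transport and 3 of 12 other kinesins. In 21 genes such a peak ended within 25 nt of an annotated 3′ end of a coding transcript, against 36.9% of protein-coding genes, with 11 mitotic, 8 transport and 2 other kinesins among them. The mitotic gene with a 3′ UTR peak but none at such an end was KIF4A, whose 60-tag peak ended 62 nt before it. The transport gene was KIF3C, a kinesin-2 subunit, with a 30-tag peak.

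The tallest 3′-end peak of the mitotic class was that of KIF2C, at 341 tags. KIF18B followed with 232 tags, and KIF14, a motor of cytokinesis, had its tallest 3′ UTR peak at 226 tags and its peak at the annotated end at 97 tags. KIF11, the motor that pushes spindle poles apart, had 130 tags, and KIF20A, which brings the chromosomal passenger complex to the midzone, had 129 tags in its only peak. In the transport class the tallest peak at an annotated end was 302 tags in KIF5B, the kinesin-1 heavy chain of most tissues, after which came KIF1B with 238 tags, KIF3B with 187 tags and KIF13A with 79 tags. KIF13A also had a 128-tag 3′ UTR peak upstream of that. With 1 transcript per gene, both of these KIF13A peaks were intergenic. Its 35-tag 3′ UTR peak, 191224 nt before the end of the gene, was then intronic. At that setting 6 transport genes had a peak at an annotated end. KIF1C, a carrier of vesicles and mRNA, had its tallest 3′ UTR peak at 72 tags. The 3 others were KIF7, a ciliary regulator of Hedgehog signalling, with 23 tags, KIF27, a relative of KIF7, with 17 tags, and KIF9.

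The classes overlapped widely in these heights. The tallest peak at an annotated end ranged from 15 to 341 tags in 11 mitotic genes (median 97 tags) and from 11 to 302 tags in 8 transport genes (median 73 tags). The median over the 7065 protein-coding genes with such a peak was 65 tags. Low values in the mitotic class were 15 tags in KIF15, 16 tags in KIF23, a subunit of centralspindlin, and 20 tags in KIF2A. KIF22, a chromosome-arm motor, had 65 tags at a position listed under 8 gene IDs. The lowest transport values were 14 tags in KIF16B, an early endosome motor, and 11 tags in KIF13B, a vesicle motor related to KIF13A.

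**Figure D4:**
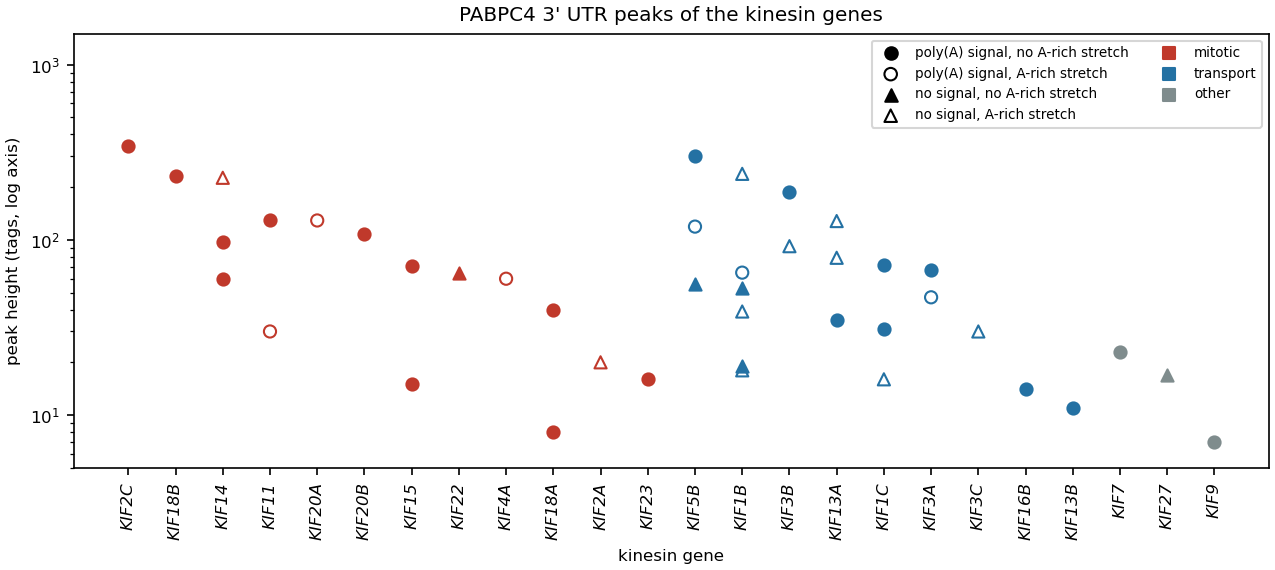
Height in tags, on a log axis, of every PABPC4 3′ UTR peak in the 24 kinesin genes that have one, coloured by class. Circles have a poly(A) signal in the last 40 nt, triangles have none, and open symbols have an A-rich stretch within 50 nt downstream. Heights of the classes overlap, and open triangles are more frequent in the transport class, which has long 3′ UTRs.

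The ends of peaks at annotated 3′ ends are shown for peaks of both classes, because each carries a poly(A) signal close to its end. The sequences are the last 30 nt of the peak on the transcribed strand of hg38, except for KIF3B, where they are 30 nt from the signal onwards. Capitals mark AATAAA or ATTAAA.
KIF2C, 341 tags, chr1:44767734-44767763, plus strand: gaaaaAATAAAtcagctgtttaagtgtgtg
KIF11, 130 tags, chr10:92655364-92655393, plus strand: tccatggttAATAAAtgtggtttctacatt
KIF14, 97 tags, chr1:200551504-200551533, minus strand: agaatgcctttAATAAAtcttttcagcatt
KIF18A, 40 tags, chr11:28020619-28020648, minus strand: tgatatATTAAAgatgtagattttaaagtg
KIF5B, 302 tags, chr10:32009012-32009041, minus strand: ttaAATAAAgaggaaaattttttgaaatgt
KIF3B, 187 tags, chr20:32334976-32335005, plus strand: AATAAAaatcaatcagatttattgtaccta
KIF1C, 31 tags, chr17:5028365-5028394, plus strand: acttttgtatcttgAATAAAtttggggatc

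A poly(A) signal, AATAAA or ATTAAA on the transcribed strand, was found in the last 40 nt of 19 of the 23 kinesin peaks at annotated ends. This was 82.6% (62.9 to 93.0%), and 75.4% of the 8056 such peaks of protein-coding genes in the list had one. Over all kinesin 3′ UTR peaks the signal was present in 27 of 42 (64.3%, 49.2 to 77.0%), against 47.1% of the list, with 14 of 17 in the mitotic class (82.4%, 59.0 to 93.8%) and 11 of 22 in the transport class (50%, 30.7 to 69.3%). An A-rich stretch, meaning a run of 6 A, or 10 nt with at least 7 A, in the 50 nt after the peak, can be primed without a poly(A) tail in this assay. It followed 5 of 17 mitotic and 11 of 22 transport 3′ UTR peaks, against 31.9% of 3′ UTR peaks in the list. The median length of annotated 3′ UTR per gene was 623.5 nt in the mitotic class and 3695 nt in the transport class. The 238-tag KIF1B peak ended at a short coding isoform whose 3′ UTR overlaps RN7SL731P, a 7SL pseudogene, and it had an A-rich stretch and no signal. Sense matches to 7SL RNA were found for 6 transport and 1 mitotic 3′ UTR peaks.

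At least 2 PABPC4 3′ UTR peaks were listed in 10 of the 39 kinesin genes (25.6%), against 26.1% of protein-coding genes. Among genes with any such peak the share was 10 of 24 (41.7%), against 51.6% of protein-coding genes. They were KIF11, KIF14, KIF15 and KIF18A among mitotic kinesins and KIF1B, KIF1C, KIF3A, KIF3B, KIF5B and KIF13A among transport kinesins. The peak farthest downstream was the tallest in 6 of the 10, and in 46.5% of the 5003 protein-coding genes with several. In KIF15 that peak is the 3′ end of TMEM42, at 71 tags, and the 15-tag peak is that of KIF15.

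KIF18A and KIF11 had most of their 3′ UTR height at the distal end. The KIF18A peaks were 8 tags, 387 nt before the end, and 40 tags at the end (83.3% of its 3′ UTR height), both with a signal and without an A-rich stretch. KIF11 had 30 tags, 1544 nt before the end of the gene and followed by an A-rich stretch, and 130 tags at the end (81.3%). KIF5B had peaks of 56, 119 and 302 tags from the 5′ side, with 63.3% of the height in the last. KIF3B had 92 and 187 tags, and only the second had a signal, while KIF3A, its partner subunit, had 47 and 67 tags.

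In KIF1C the order was the reverse. Its first 3′ UTR peak, 3700 nt before the annotated end, was 72 tags high (60.5%), had an AATAAA and no A-rich stretch, and exceeded the 31-tag peak at the end. The other 3 genes with their tallest peak further upstream were KIF14, KIF13A and KIF1B, and in each of them the tallest peak had an A-rich stretch and no signal. With A-rich peaks left out, 6 kinesin genes had at least 2 3′ UTR peaks, against 17.1% of protein-coding genes.

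Introns held 151 of the 224 PABPC4 peaks in kinesin genes (67.4%, 61.0 to 73.2%), against 60.2% of the list. The 3′ UTRs held 42 (18.8%, 14.2 to 24.4%), against 29.8%. Coding sequence held 28, and the remaining 3 lay in the 5′ UTR of KIF3A and in non-coding exons of KIF15 and KIF22. By class, the 3′ UTR share was 17 of 105 mitotic peaks (16.2%, 10.4 to 24.4%) and 22 of 95 transport peaks (23.2%, 15.8 to 32.6%), and the intervals overlapped. By summed height the 3′ UTRs held 28.1% in the mitotic and 33.1% in the transport class, against 46.1% of the list. Without A-rich peaks both orders turned. The 3′ UTR share of peaks was 35.3% (21.5 to 52.1%) in the mitotic and 26.8% (15.7 to 41.9%) in the transport class, with overlap. By summed height the shares were 51.5% and 31.6%. The share of the list at that setting was not examined. The order by height also turned with 1 transcript per gene, at 28.1% and 22.3%.

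Kinesin genes differed in their number of PABPC4 intron peaks for their intron length. KIF13A had the most, 21 peaks in 217 kb of intron, and KIF1B had 16 in 152 kb. KIF18B had 13 in 18.3 kb, or 70.9 per 100 kb, which was eighth highest of 7274 genes with a PABPC4 intron peak and at least 10 kb of intron, whose median was 5.06 per 100 kb. Its 13 peaks were 25 to 198 tags high. KIF26B, with 540 kb of intron, had no peak, and KIF6, with 384 kb, had 1. KIF5B and KIF2A had 16.8 and 15.3 intron peaks per 100 kb. All 13 PABPC4 peaks of KIF2A were also listed under IPO11.

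**Figure D5:**
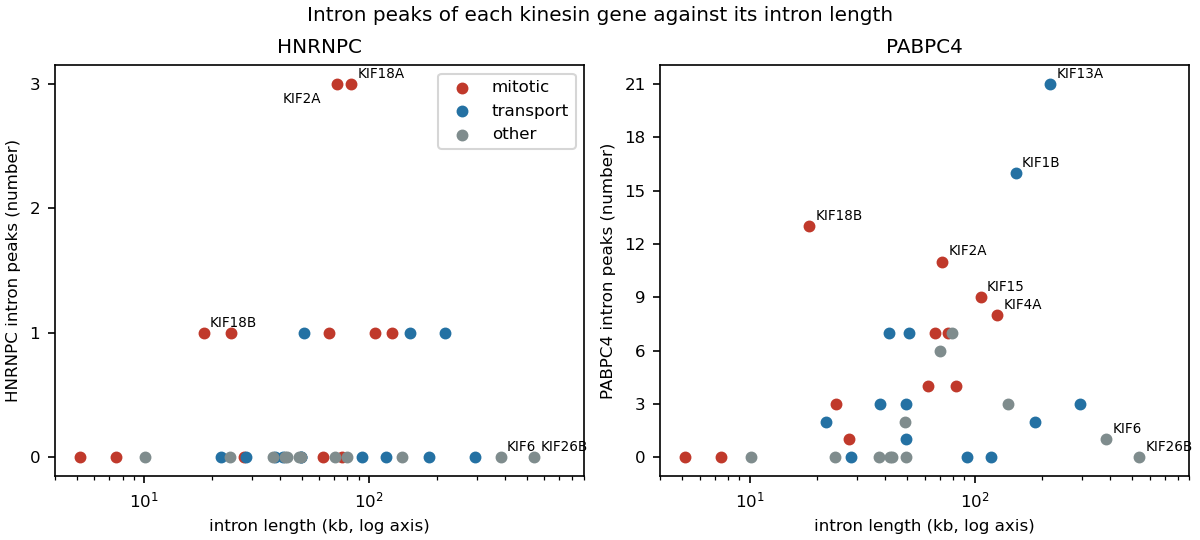
Number of HNRNPC (left) and PABPC4 (right) intron peaks in each kinesin gene against its intron length in kb on a log axis, coloured by class. KIF2B and KIF4B have no intron and are not drawn. KIF18B, with 18.3 kb of intron and 13 PABPC4 intron peaks, lies above genes of like length, and KIF26B, with 540 kb, has no peak.

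Most PABPC4 intron peaks of kinesin genes had genomic A downstream or a sense 7SL match nearby, in a combined share near that of the whole list. The sense 7SL match alone was more frequent than in the list. An A-rich stretch followed 101 of the 151 (66.9%, 59.0 to 73.9%), against 71.2% of intron peaks in the list, with 48 of 67 in the mitotic class and 40 of 65 in the transport class. A sense match to 7SL RNA was found for 106 (70.2%, 62.5 to 76.9%), against 59.6%. At least 1 of these features was present in 139 (92.1%, 86.6 to 95.4%), against 89.96%. A poly(A) signal was found in 7 of the 151, against 5.96% of the list. Of these 7, KIF3C, at 6 tags, was the only peak with neither an A-rich stretch nor a sense match.

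The tallest intron peak, in KIF6, is shown with 50 nt downstream on the transcribed strand of hg38, because no A-rich stretch follows it. Runs of 6 or more A would stand in capitals, and there are none.
KIF6, 636 tags, chr6:39346004-39346103, minus strand: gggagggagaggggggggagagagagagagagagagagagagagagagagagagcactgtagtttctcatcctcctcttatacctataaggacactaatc

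The tallest mitotic intron peak, 198 tags in KIF18B, had a sense 7SL match and an A-rich stretch downstream. The tallest transport intron peak, 119 tags in KIF1B, had a sense match as well. The KIF6 peak, the tallest PABPC4 peak of any kinesin gene at 636 tags, was the only peak of KIF6, fell on a repeat of GA and had no A-rich stretch, signal or 7SL match. Among the 12 intron peaks with neither feature, the next tallest were 113 tags in KIF13A and 100 tags in KIF2A.

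Coding sequence held 28 of the 224 PABPC4 peaks (12.5%, 8.79 to 17.5%), against 5.04% of the list. The mitotic class had 19 of 105 (18.1%, 11.9 to 26.5%) and the transport class 7 of 95 (7.37%, 3.61 to 14.4%). KIF20B alone had 9, with a summed height of 494 tags, and 7 of them had an A-rich stretch downstream. An A-rich stretch followed 21 of the 28 kinesin CDS peaks, against 62.0% of CDS peaks in the list. The tallest CDS peak was 469 tags in KIF5B, above its 302-tag 3′-end peak, and the next was 224 tags in KIF21A, a motor that restrains microtubule growth. The KIF21A peak is shown with 50 nt downstream on the transcribed strand of hg38 and runs of 6 or more A in capitals, because these runs lie in the genome and are not poly(A) tails.
KIF21A, 224 tags, chr12:39351734-39351861, minus strand: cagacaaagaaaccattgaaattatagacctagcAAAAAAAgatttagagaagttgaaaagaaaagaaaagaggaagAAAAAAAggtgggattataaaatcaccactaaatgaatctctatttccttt

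No A-rich stretch followed the KIF5B peak. In KIF21A the second run began at the end of the peak, and the definition was met. KIF21A had no 3′ UTR peak, and neither did KIF24, a centriole kinesin with 6 intron peaks of 9 to 25 tags.

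Of 18 other motors and kinesin partners, 14 had PABPC4 peaks, all 14 with a 3′ UTR peak, and 6 had HNRNPC peaks, where 61.5%, 50.7% and 19.8% of protein-coding genes did. KLC1, a light chain of kinesin-1, had 13 HNRNPC peaks, 11 of them in introns. The others with HNRNPC peaks were KIFC3, a minus-end motor, with 3, and TRAK1, an adaptor for mitochondria, PRC1, which bundles antiparallel microtubules, RACGAP1, the partner of KIF23 in centralspindlin, and TPX2, a spindle assembly factor, with 1 each. The TPX2 peak was in the 3′ UTR, at 38 tags. The tallest PABPC4 3′ UTR peaks were 279 tags in TPX2, 179 tags in KIFC3 and 172 tags in PRC1. KIFC1, KIFC2, KLC3 and MAPK8IP1 had no peak in either list.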

How the data were processed

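CLIP tags of HNRNPC and PABPC4 in MDA-MB-231 cells were analysed from 1 deposited peak list per protein, each made by the authors from 2 pooled samples aligned to hg38. The signal value deposited for a peak is its height in pooled unique tags, not scaled to depth, and read depth of the libraries was not examined. Each entry also gives a gene ID, an expected height and the authors' p-value. The submitters' processing notes name BWA 0.7.17, UMI-tools and cutadapt. The antibodies were from Santa Cruz for HNRNPC and from Proteintech for PABPC4.

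Positions were counted once per gene. Other IDs were also given for 3 HNRNPC and 17 PABPC4 positions of kinesin genes. Peak centres were assigned with GENCODE 44 on their own strand, in the order 3′ UTR, CDS, 5′ UTR, non-coding exon and intron. A peak could thus take the feature of an overlapping gene. Rates used the intron length of each gene. Matches to 7SL RNA were found by BLAST 2.17.0 with an E-value limit of 1e-05. Python 3.11.15, pandas 2.3.3, scipy 1.17.1 and pysam 0.24.0 were used. The sequences of some peaks are not reported here. The sequence finders and intervals were tested on simulated data.

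Every kinesin gene with an HNRNPC peak was named, with the 5 tallest PABPC4 3′ UTR peaks per class, the 3 tallest HNRNPC peaks, the tallest PABPC4 intron peak per class and the genes without peaks. Of 18 partners, those with an HNRNPC peak and the 3 tallest PABPC4 3′ UTR peaks were named. Genes with several 3′ UTR peaks, low or coding-sequence peaks and high intron densities were named after their values were seen. The members and lists were chosen with earlier results of these data known.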

Additional observations from a re-analysis of the deposited data

How the results depend on the processing

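No paired analysis was possible because each protein had 1 list of pooled samples. Of 103 recalculated values, 80 stayed within 1.5 times the count or within the interval of the reported value, and 23 moved. The interval of a height share was a Wilson interval over summed tags, not peaks or genes, so small changes in it counted as moved. With the authors' p-value at most 0.001, 6 kinesin genes had an HNRNPC peak. With peaks at or above their list's median height there were 4, intron rates per Mb were 4.45 for HNRNPC in mitotic genes and 50.4 and 23.9 for PABPC4 in mitotic and transport genes, 3′ UTRs held 32.0% and 36.8% of the PABPC4 height, 5 transport genes had a peak at an annotated end and 6 genes had several 3′ UTR peaks. For these gene counts, the share of all protein-coding genes at that height was not examined, so whether they are high or low is not known. Without A-rich peaks the PABPC4 rates were 28.2 and 18.7 per Mb and the 3′ UTR share of mitotic peaks was 35.3%. The height shares were then 51.5% and 31.6%, and 6 genes had several peaks, against 17.1% of protein-coding genes. The narrower class lists gave height shares of 33.9% and 38.1% and 5 transport genes with an end peak. The mitotic height share was 30.5% with every entry counted and 31.1% without KIF18B, and the transport share was 22.3% with 1 transcript per gene. The share of A-rich intron peaks was 54.3% by runs of 6 A only and 49.7% within 20 nt. The mitotic rate stayed above the transport rate in 7 of 7 settings for HNRNPC and in 8 of 8 for PABPC4. Chosen after seeing the data were leaving out KIF18B, leaving out positions with other IDs, the 100 nt limit, and the PABPC4 intron rates and end-peak counts with all their alternatives. The HNRNPC transport rate rests on 3 peaks.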
